A study of Homo sapiens with 8 samples.

Results

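The histone cluster genes are the rows of the deposited RNA-Seq values whose symbols start with HIST1H, HIST2H, HIST3H or HIST4H. Of 12939 genes, 41 met this rule, and all 41 carried the older names. They comprise 2 H1, 12 H2A, 11 H2B, 8 H3 and 8 H4 genes, of which 29 lie in the HIST1 cluster on chromosome 6, 11 in the HIST2 cluster on chromosome 1 and 1, HIST4H4, on chromosome 12. Histone cluster genes other than these 41 were not analysed here. Every listed gene reached at least 2.0 in 1 library on the scale of log2(CPM + 1), with CPM for the reads of a gene scaled to a common library total, so each of the 41 had already passed a filter on low values.

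The values came from CSCs (cancer stem cells) of MDA-MB-231, a mesenchymal breast cancer cell line without estrogen, progesterone or HER2 receptors. All cells carried GFP under the regulatory region of Oct4a, kept with G418, and an RFP vector kept with puromycin, and they were sorted as GFP-high and RFP-high cells and left overnight before RNA was isolated. The vector held scramble shRNA in 3 libraries, CDH2 shRNA in 3 and Cx43 shRNA in 2. According to the methods, the CDH2 knockdown cells came from 1 clone, so that clone and knockdown cannot be told apart, and the labels do not say whether the replicates were separate cultures, so p-values measure only the spread between these libraries, which may be technical. CDH2 and GJA1, the gene of Cx43, are not among the genes analysed here, and the knockdowns were therefore not checked in these libraries. Of the marker genes, VIM, CD44, AXL, CAV1 and LGALS1 of this line were listed at group means of 6.41 to 9.76 on the log2(CPM + 1) scale, and ESR1, PGR, CDH1 and GATA3 were not among the rows. KRT8, taken as low in this line, was listed at 8.12 to 8.48 and EPCAM at 2.25 to 2.74. Of the genes of other cell types, PECAM1 was listed at 1.83 to 2.34 and COL1A1 at 2.89 to 3.97, PTPRC, CD3E, VWF, COL1A2, DCN and LUM were not among the rows, and their part in the results was not tested. Without read counts in the files the depth is unknown, and precision rests on the number of libraries.

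Cluster histone genes are known as replication-dependent. They are transcribed mainly in S phase, when new DNA is packed into nucleosomes of H2A, H2B, H3 and H4, with H1 bound to the linker DNA. Cyclin E with CDK2 phosphorylates NPAT, which switches the clusters on. Their mRNAs have no introns and, in cycling cells, end in a stem-loop instead of a poly(A) tail, which SLBP binds and which the U7 snRNP helps to cut. Libraries selected on poly(A) therefore lose most of these mRNAs, whereas the libraries here were depleted of ribosomal RNA and keep them.

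The stem-loop was looked for in the 150 bases after each stop codon on hg38, as 16 bases on the transcribed strand, GG, any 2 bases, CTT, any base, T, any base, A, any 3 bases and CC. It was found in 41 of the 41 genes, 23 to 68 bases after the stop codon, and in 79 of 20033 protein-coding genes (0.394%), against 0.0599% on the other strand. The 41 genes held 7 versions of the 16 bases, and 25 genes shared 1 of them. One gene of each version is shown here with 5 bases on each side, 5′ to 3′ on the transcribed strand. The 16 bases are in capitals, and they are shown because libraries made without poly(A) selection keep mRNAs that end in this stem-loop. HIST2H2BE (chr1:149886183-149886208, minus strand) stands for the 25 genes, HIST1H4C (chr6:26104312-26104337, plus strand) for 6 H4 genes, HIST1H2BC (chr6:26123467-26123492, minus strand) for 5 genes and HIST2H4A (chr1:149833027-149833052, plus strand) for itself and HIST2H4B, and the other 3 versions were found in 1 gene each.
HIST2H2BE: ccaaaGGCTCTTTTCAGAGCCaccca
HIST1H4C: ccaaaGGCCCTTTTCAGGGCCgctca
HIST1H2BC: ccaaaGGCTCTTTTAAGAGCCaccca
HIST2H4A: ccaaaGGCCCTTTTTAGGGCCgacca
HIST2H2AC: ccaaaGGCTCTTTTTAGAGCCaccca
HIST1H2AG: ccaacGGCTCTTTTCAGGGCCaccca
HIST1H2AK: aaaaaGGTTCTTTTCAGAGCCaccta
The 16 bases began with GGCCC in all 8 H4 genes and with GGCTC or GGTTC in the other 33 genes. The search finds letters and does not show where transcripts end. The canonical transcript of HIST2H2BE, of 2224 bases, runs past its stem-loop.

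No gene of any histone class was past threshold in either knockdown. The threshold asks for an adjusted p below 0.05 together with the fold change that the methods set, which is 0.73 on the log2 scale for CDH2 and 0.58 for Cx43, and 0.58 was used between the knockdowns too. By it, 0 of the 41 genes changed in CDH2 knockdown CSCs versus scramble shRNA, where 2.06% of all genes did. In the same way 0 of 41 changed in Cx43 knockdown CSCs (1.18% of all genes) and 0 of 41 differed between the knockdowns (0.0%). With the adjusted p alone, 1 gene, HIST2H2BE, rose in CDH2 knockdown, against 14.3% of all genes in either direction. By the same criterion 0 genes changed in Cx43 knockdown (1.21% of all genes) and 0 differed between the knockdowns (0.0%). At an unadjusted p under 0.05 the counts were 3 (37.5% of all genes), 7 (21.6%) and 3 (20.0%). All p-values are two-sided and come from limma with the replicate number as a block, with Benjamini-Hochberg adjustment across the 12939 genes.

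Most fold changes of the histone genes were small and above 0. In CDH2 knockdown, 26 of the 41 genes had a log2 fold change above 0, with a median of 0.09 against 0.007 over all genes and a range from -0.59 to 0.50. In Cx43 knockdown, 29 of 41 were above 0, with a median of 0.19 against 0.04 over all genes and a range from -0.48 to 0.57. Between the knockdowns, 30 of 41 genes were lower in CDH2 than in Cx43 knockdown, with a median difference of -0.15 against -0.03. Over all genes, 51.0% were above 0 in CDH2 knockdown and 57.6% in Cx43 knockdown. Between the knockdowns, 7096 of all 12939 genes were lower in CDH2 than in Cx43 knockdown. These comparisons share libraries, so their values are not independent of each other. All 3 CDH2 knockdown libraries lay above all scramble libraries in 3 of the 41 genes (27.1% of all genes) and below them in 1 (24.8%). Both Cx43 knockdown libraries lay above all scramble libraries in 11 (31.4% of all genes) and below them in 1 (21.4%). CDH2 knockdown lay wholly above Cx43 knockdown in 1 (21.8%) and wholly below it in 9 (29.1%).

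**Figure D1:**
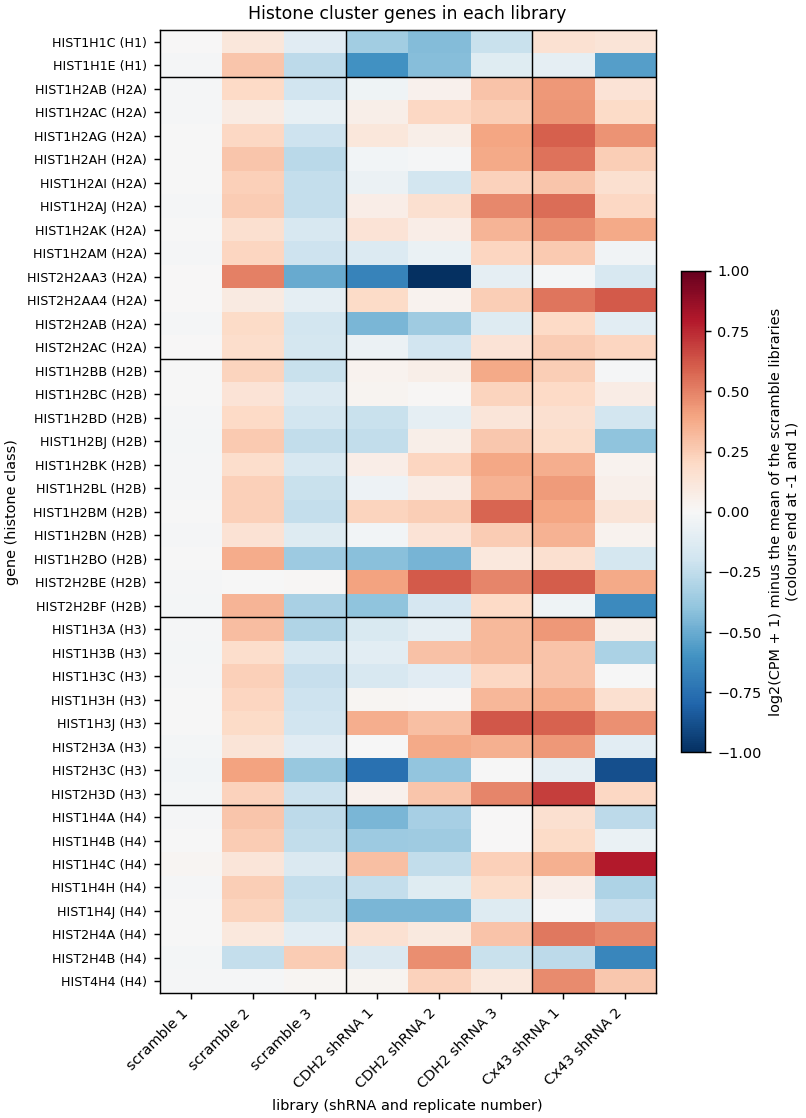
Each row is a histone cluster gene, grouped by class, each column a library, and the colour is the log2(CPM + 1) value minus the mean of the 3 scramble libraries. Scramble replicate 2 is above and replicate 3 below the scramble mean in most rows, and CDH2 shRNA replicate 3 and Cx43 shRNA replicate 1 are the higher libraries of their groups.

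The spread between replicates was large and ran through nearly all of these genes together. The range over the 3 scramble libraries had a median of 0.43 on the log2 scale for the histone genes and 0.19 for all genes, and in CDH2 knockdown the medians were 0.36 and 0.21. Scramble replicate 2 was highest and replicate 3 lowest in 38 of the 41 genes, against 48.4% of all genes. CDH2 shRNA replicate 3 was the highest of its group in 36 of 41 (40.7% of all genes). Cx43 shRNA replicate 1 was higher than replicate 2 in 39 of 41 (57.1% of all genes). The exceptions in scramble were HIST2H2BE, HIST2H4B and HIST4H4.

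The authors' removal of the run effect ties these libraries to each other. In every gene, the deviations of same-numbered libraries from their group means cancelled to within 0.0001, so a gene that is low in scramble replicate 3 is high by the same amount in CDH2 shRNA replicate 3. Over all genes the deviations vary in only 2 directions, so the 41 genes are not 41 independent readings of the pattern. The median difference between CDH2 knockdown and scramble was -0.04 in replicate 1, -0.20 in replicate 2 and 0.43 in replicate 3, with 17, 10 and 39 of the 41 genes above 0, against 50.3%, 50.1% and 52.3% of all genes. For Cx43 knockdown it was 0.30 in replicate 1, with 36 genes above 0, and -0.14 in replicate 2, with 11 (59.1% and 53.0% of all genes). By these values the direction of the typical histone gene differed between replicate numbers in both knockdowns. Because same-numbered deviations cancel, these differences are not separate readings of a knockdown effect. In replicate 3 a deviation of the scramble library enters again, with the opposite sign, through the CDH2 shRNA library. When scramble or CDH2 shRNA replicate 3 was left out, which give the same fit, 10 of the 41 genes passed the adjusted p alone in CDH2 knockdown, 9 of them lower, and so did 41.0% of all genes. HIST1H1E, HIST1H2BO, HIST1H4A, HIST1H4B, HIST1H4J, HIST2H2AA3, HIST2H2AB, HIST2H3C and HIST1H1C were the 9.

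The same pattern held in the 40 genes of a list for DNA replication in S phase, where scramble replicate 2 was highest and replicate 3 lowest in 39, CDH2 shRNA replicate 3 was highest in 36 and Cx43 shRNA replicate 1 was higher in 38. Their median range in scramble was 0.29. The counts were 10, 9 and 6 in 11 histone variants outside the clusters, and 5, 5 and 7 in 11 genes of histone transcription. They were 23, 18 and 22 in 30 genes of histone mRNA processing and decay, and 20, 19 and 22 in 28 histone chaperones and supply factors. In 48 other RNAs without a poly(A) tail the counts were 16, 7 and 15. Over all genes the shares were 48.4%, 40.7% and 57.1%. The part of cell cycle stage in this spread was not tested. In these bulk samples, fewer cells in S phase and less histone mRNA per cell cannot be told apart.

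The H2B genes encode one partner of the H2A-H2B dimer. HIST2H2BE (H2BC21 in the newer naming, chr1:149884459-149886682 on hg38, minus strand) was the exception among the 41 genes. Its log2(CPM + 1) was 5.40, 5.41 and 5.42 in the scramble libraries, 5.81, 6.02 and 5.90 in the CDH2 knockdown libraries, and at 6.01 and 5.79 in the Cx43 knockdown libraries. All 5 knockdown libraries lay above the 3 scramble libraries. The SD was 0.009 in scramble, 0.11 in CDH2 knockdown and 0.16 in Cx43 knockdown, in values already corrected for runs. HIST2H2BE rose in CDH2 knockdown by 0.50 ± 0.10 (SE) on the log2 scale, a fold change of 1.41 with an adjusted p of 0.0356 by limma, short of the log2 threshold of 0.73. In Cx43 knockdown the difference was 0.49 ± 0.12 with an adjusted p of 0.106. Its canonical transcript spans 2224 bases, and those of the other 40 genes 388 to 787, and 4.88% of its 75-base stretches occur in other genes, HIST2H2BF among them. The CDH2 call was lost when 1 of scramble replicate 1, CDH2 shRNA replicates 1 and 2 or either Cx43 shRNA library was left out, where 0 to 10 of all genes were called, and the difference stayed between 0.41 and 0.58.

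HIST2H2BE faces HIST2H2AC, an H2A gene, across 235 bases between their start sites, and the partner did not share its pattern. HIST2H2AC was at 5.18, 5.35 and 5.00 in scramble, 5.12, 4.99 and 5.31 in CDH2 knockdown, and at 5.43 and 5.39 in Cx43 knockdown. Its difference was -0.04 ± 0.13 in CDH2 and 0.23 ± 0.16 in Cx43 knockdown, with adjusted p-values of 0.854 and 0.441. The CDH2 libraries overlapped the scramble libraries and the Cx43 libraries lay just above them. There were 8 such facing pairs of an H2A and an H2B gene among the 41 genes, the starts at most 247 bases apart. In CDH2 knockdown the difference of HIST2H2BE from its partner, 0.54, was the widest of the 8, followed by 0.27 for HIST1H2AM against HIST1H2BO. In Cx43 knockdown the widest was that of HIST1H2BJ, at -0.11, and HIST1H2AG, at 0.52. The sequences between the starts of these 2 pairs are shown because they are the pairs whose members differed most. They are given 5′ to 3′ on the plus strand of hg38, with the H2B gene running to the left and the H2A gene to the right, and with the octamer ATTTGCAT, CCAAT and TATAAA in capitals on either strand. The first is chr1:149886683-149886917 and the second chr6:27132796-27133042.
HIST2H2BE and HIST2H2AC: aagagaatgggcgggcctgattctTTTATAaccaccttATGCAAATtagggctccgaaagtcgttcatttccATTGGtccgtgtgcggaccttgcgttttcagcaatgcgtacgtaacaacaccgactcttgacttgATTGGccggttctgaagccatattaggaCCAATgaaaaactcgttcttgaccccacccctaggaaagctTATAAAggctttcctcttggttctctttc
HIST1H2BJ and HIST1H2AG: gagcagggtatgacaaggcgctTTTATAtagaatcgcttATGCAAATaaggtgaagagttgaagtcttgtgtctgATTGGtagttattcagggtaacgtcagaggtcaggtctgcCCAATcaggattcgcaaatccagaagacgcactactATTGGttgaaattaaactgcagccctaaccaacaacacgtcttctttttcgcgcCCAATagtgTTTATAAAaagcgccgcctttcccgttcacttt
Each held 1 octamer, with 3 and 4 matches of CCAAT and 2 and 3 of TATAAA, some of which overlap.

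Promoters of 37 of the 41 genes were in the RefSeq table of GRCh38.p14, each from 250 bases before to 50 after the start. The octamer, which POU2F1 binds in H2B promoters, was found on either strand in 8 of 11 H2B and 7 of 11 H2A promoters and in 0 of the 2 H1, 7 H3 and 6 H4 promoters, against 1.8% of 27305 promoters. CCAAT, the motif of NF-Y, was found in 31 of 37 (35.7% of all promoters) and in 0 of the 6 H4 promoters. TATAAA was found in 29 of 37 (12%). The starts of facing H2A and H2B genes lie at most 247 bases apart, so windows of 250 bases before the start cover the same stretch for both partners. A match of any of the 3 motifs there can be counted for both, and the H2A and H2B counts are not independent. A match is a description of the letters and not a site that was shown to be bound.

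Among the other H2B genes the median log2 fold change of the class, HIST2H2BE included, was 0.12 in CDH2 and 0.14 in Cx43 knockdown, with 8 and 7 of 11 genes above 0. HIST1H2BD had the highest level per length of this class, 165 CPM per kilobase on average. It was at 6.35, 6.56 and 6.18 in scramble, 6.13, 6.27 and 6.48 in CDH2 knockdown, and at 6.52 and 6.18 in Cx43 knockdown. The 3 groups overlapped, and its differences of -0.07 ± 0.16 and -0.01 ± 0.19 were smaller than their errors. HIST1H2BO had the lowest fold change of the class in CDH2 knockdown, -0.26 ± 0.25, from 4.79, 5.17 and 4.43 in scramble to 4.38, 4.33 and 4.90. In Cx43 knockdown it was at 4.96 and 4.63. HIST2H2BF had the lowest in Cx43 knockdown, -0.34 ± 0.31, from 6.15, 6.5 and 5.84 in scramble to 6.12 and 5.53, and it was at 5.76, 6.0 and 6.36 in CDH2 knockdown. Its RefSeq span of 29682 bases overlaps FCGR1A and another locus, and the counting by strand is not given in the sources used here.

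**Figure D2:**
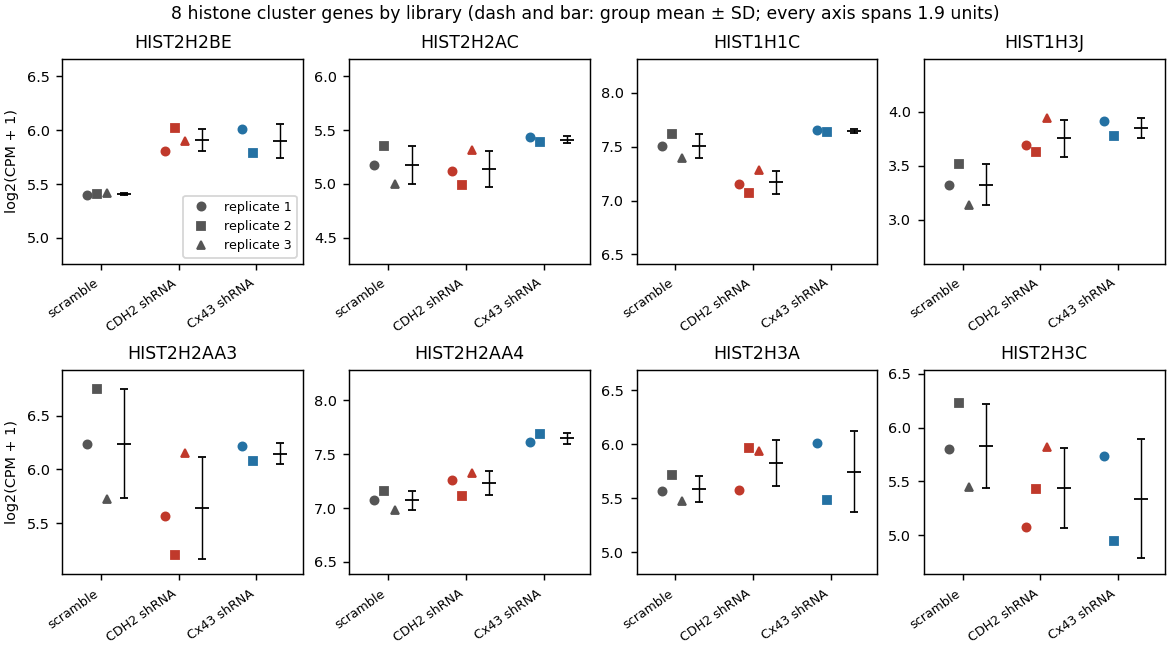
Each panel is a gene, each point a library on the log2(CPM + 1) scale, with dashes and bars for the group mean ± SD (3, 3 and 2 libraries). HIST2H2BE is flat in scramble (5.40 to 5.42) and higher in all 5 knockdown libraries, HIST2H2AC is not, HIST1H1C is lowest in CDH2 shRNA, and the copies in the lower row differ from each other although their sequences are the same.

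The H1 genes encode linker histones. Both genes of this class had log2 fold changes below 0 in CDH2 knockdown, and neither passed the test. HIST1H1C (H1-2) was at 7.51, 7.62 and 7.39 in scramble, 7.16, 7.07 and 7.28 in CDH2 knockdown, and at 7.66 and 7.63 in Cx43 knockdown. All 3 CDH2 libraries lay below the lowest scramble library and both Cx43 libraries above the highest. The difference was -0.34 ± 0.10 in CDH2 knockdown (adjusted p = 0.0746 by limma), 0.14 ± 0.12 in Cx43 knockdown (0.542) and -0.47 ± 0.12 between the knockdowns (0.15). It was negative within all 3 replicate numbers in CDH2 knockdown, at -0.35, -0.55 and -0.11. HIST1H1E (H1-4) was at 7.30, 7.59 and 7.05 in scramble, 6.71, 6.89 and 7.19 in CDH2 knockdown, and at 7.23 and 6.76 in Cx43 knockdown. Its groups overlapped, and the differences were -0.38 ± 0.22 and -0.32 ± 0.25 with adjusted p-values of 0.245 and 0.510. None of the 75-base stretches of the canonical transcripts of HIST1H1C and HIST1H1E occurred in a transcript of another gene. Their summed level was 299 to 387 CPM in scramble, 246 to 300 CPM in CDH2 knockdown and 305 to 349 CPM in Cx43 knockdown, so that CDH2 shRNA replicate 3 reached just above scramble replicate 3, the lowest of its group.

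The H2A genes encode the other partner of the dimer. In Cx43 knockdown, 11 of the 12 genes had a log2 fold change above 0, with a median of 0.30, and in CDH2 knockdown 8 of 12, with a median of 0.10. None passed the test in either knockdown. All 12 were lower in CDH2 than in Cx43 knockdown, with differences of -0.50 to -0.11, and 0 of the 12 passed the test of that difference. So were 7096 of all 12939 genes, and 11 of 11 histone variants outside the clusters, with a median of -0.15. HIST1H2AJ had the largest fold change of the class in CDH2 knockdown, 0.24 ± 0.19. It was at 3.86, 4.12 and 3.63 in scramble, 3.94, 4.03 and 4.34 in CDH2 knockdown, and at 4.43 and 4.07 in Cx43 knockdown, with overlapping groups. HIST1H2AG, named after its values were seen, was at 5.32, 5.53 and 5.11 in scramble, 5.44, 5.38 and 5.72 in CDH2 knockdown, and at 5.92 and 5.77 in Cx43 knockdown. Both Cx43 libraries lay above all others, and the difference from scramble was 0.52 ± 0.18 with an adjusted p of 0.180. Summed over the class, the level was 393 to 527 CPM in scramble, 422 to 526 CPM in CDH2 knockdown, and 556 and 599 CPM in Cx43 knockdown.

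HIST2H2AA3 and HIST2H2AA4 are copies of an H2A gene in the duplicated part of the HIST2 cluster, at chr1:149842218-149842750 and chr1:149851061-149851594. Of the 75-base stretches of HIST2H2AA3, 100% also occur in HIST2H2AA4, and 99.8% the other way, so reads of the length sequenced here, 75 bases, cannot place most of either copy. HIST2H2AA3 was at 6.24, 6.74 and 5.73 in scramble, 5.57, 5.21 and 6.15 in CDH2 knockdown, and at 6.22 and 6.08 in Cx43 knockdown. HIST2H2AA4 was at 7.08, 7.16 and 6.98 in scramble, 7.26, 7.11 and 7.32 in CDH2 knockdown, and at 7.61 and 7.68 in Cx43 knockdown. The first had the largest negative fold change of all 41 genes in CDH2 knockdown, -0.59 ± 0.34, and the second the largest positive one of the class in Cx43 knockdown, 0.57 ± 0.12 (adjusted p = 0.0806 by limma). Added together in CPM, the copies differed from scramble by -0.07 ± 0.16 (CDH2 knockdown) and 0.35 ± 0.19 (Cx43 knockdown), with adjusted p-values of 0.770 and 0.344. The values of the single copies are therefore uncertain. The sum was taken after the correction for runs, and how far it depends on the division of reads was not tested.

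The H3 genes encode a core histone whose tail carries many known marks. The class had medians of 0.15 in CDH2 and 0.21 in Cx43 knockdown, with 6 of 8 genes above 0 in both. HIST1H3J (H3C12) had the highest fold change of the class in both knockdowns. It was at 3.32, 3.52 and 3.13 in scramble, 3.69, 3.63 and 3.95 in CDH2 knockdown, and at 3.91 and 3.78 in Cx43 knockdown. All 5 knockdown libraries lay above the scramble libraries, and the differences were 0.43 ± 0.14 (adjusted p = 0.0919 by limma) and 0.52 ± 0.17 (0.166). None of the 75-base stretches of its canonical transcript occurred in another gene, but 65.9% of those of HIST1H2AM occur in transcripts of HIST1H3J, so reads of HIST1H2AM could be counted in it. HIST2H3A (H3C15) and HIST2H3C (H3C14) are another duplicated pair, sharing 100% and 99.1% of these stretches. HIST2H3A was at 5.56, 5.71 and 5.47 in scramble, 5.58, 5.96 and 5.94 in CDH2 knockdown, and at 6.01 and 5.48 in Cx43 knockdown, differences of 0.24 ± 0.19 and 0.16 ± 0.22. HIST2H3C was at 5.80, 6.23 and 5.45 in scramble, 5.07, 5.43 and 5.82 in CDH2 knockdown, and at 5.73 and 4.95 in Cx43 knockdown, differences of -0.38 ± 0.33 and -0.48 ± 0.38. The copies had fold changes of opposite sign, and added together in CPM they differed from scramble by -0.06 ± 0.25 and -0.16 ± 0.29.

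The H4 genes, the partners of H3, had medians near 0, -0.01 in CDH2 and 0.01 in Cx43 knockdown, with 4 of 8 above 0 in both. HIST2H4A (H4C14) was listed at 303 CPM per kilobase and is identical over every 75-base stretch to HIST2H4B (H4C15), so this level depends on how reads were divided between the copies. HIST2H4A was at 6.71, 6.82 and 6.60 in scramble, 6.86, 6.81 and 7.0 in CDH2 knockdown, and at 7.24 and 7.19 in Cx43 knockdown. HIST2H4B was listed far lower, at 2.65, 2.44 and 2.93 in scramble, 2.53, 3.14 and 2.45 in CDH2 knockdown, and at 2.41 and 2.02 in Cx43 knockdown, and its RefSeq span covers HIST2H2AA4 and HIST2H3A. Added together they differed from scramble by 0.17 ± 0.09 in CDH2 knockdown (adjusted p = 0.217 by limma) and by 0.47 ± 0.11 in Cx43 knockdown (0.0993).

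HIST1H4C had the highest fold change among the H4 genes in Cx43 knockdown, 0.57 ± 0.24 (adjusted p = 0.235 by limma). It was at 5.73, 5.83 and 5.57 in scramble, 6.01, 5.47 and 5.95 in CDH2 knockdown, and at 6.07 and 6.51 in Cx43 knockdown, which lay above every other library. In CDH2 knockdown its difference was 0.10 ± 0.20. HIST1H4J was at the other end in CDH2 knockdown, at -0.35 ± 0.17 (adjusted p = 0.181). It was at 5.85, 6.08 and 5.63 in scramble, 5.40, 5.40 and 5.73 in CDH2 knockdown, and at 5.86 and 5.62 in Cx43 knockdown, and 91.4% of its 75-base stretches occur in H4C12. HIST4H4, named after its values were seen, was as flat in scramble as HIST2H2BE, at 4.18, 4.18 and 4.2, and was at 4.21, 4.42 and 4.29 in CDH2 knockdown and at 4.66 and 4.45 in Cx43 knockdown. Its groups did not overlap, but the lowest CDH2 library, at 4.210, lay just above the highest scramble library, at 4.204. The differences were 0.12 ± 0.10 and 0.37 ± 0.12, with adjusted p-values of 0.415 and 0.157 by limma. Over all genes, 27.1% lay wholly above scramble in CDH2 knockdown and 31.4% in Cx43 knockdown.

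**Figure D3:**
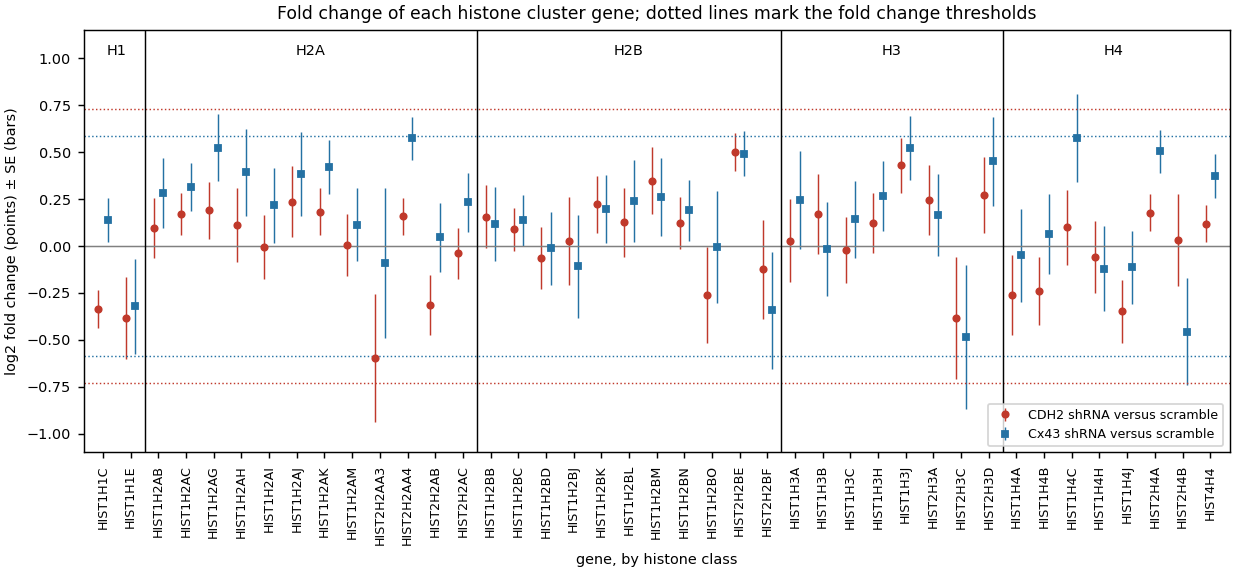
Each point is the log2 fold change of a histone cluster gene against scramble, with its standard error as a bar, for CDH2 shRNA (circles) and Cx43 shRNA (squares). All 41 genes lie inside the dotted lines of 0.73 (CDH2) and 0.58 (Cx43) above and below 0, and the 12 H2A genes are lower in CDH2 than in Cx43 shRNA.

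Summed over all 41 genes, histone mRNA made up 1770, 2050 and 1560 CPM in the scramble libraries, 1620, 1670 and 1990 CPM in the CDH2 knockdown libraries, and 2150 and 1850 CPM in the Cx43 knockdown libraries. The groups overlapped. This was 0.227% to 0.295% of the summed CPM of all genes. The log2 ratio of the group means was -0.03 for CDH2 and 0.16 for Cx43 knockdown against scramble. By class, the H4 sum was 282 to 351 CPM in scramble, 291 to 348 CPM in CDH2 knockdown and 375 and 388 CPM in Cx43 knockdown, so that H2A and H4 were the classes whose Cx43 libraries lay above all scramble libraries. The sums of H2B and H3 overlapped between all groups. A sum is set by its most abundant genes, so the log2 ratio of the H4 sums was 0.28 in Cx43 knockdown where the median of the 8 genes was 0.01.

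**Figure D4:**
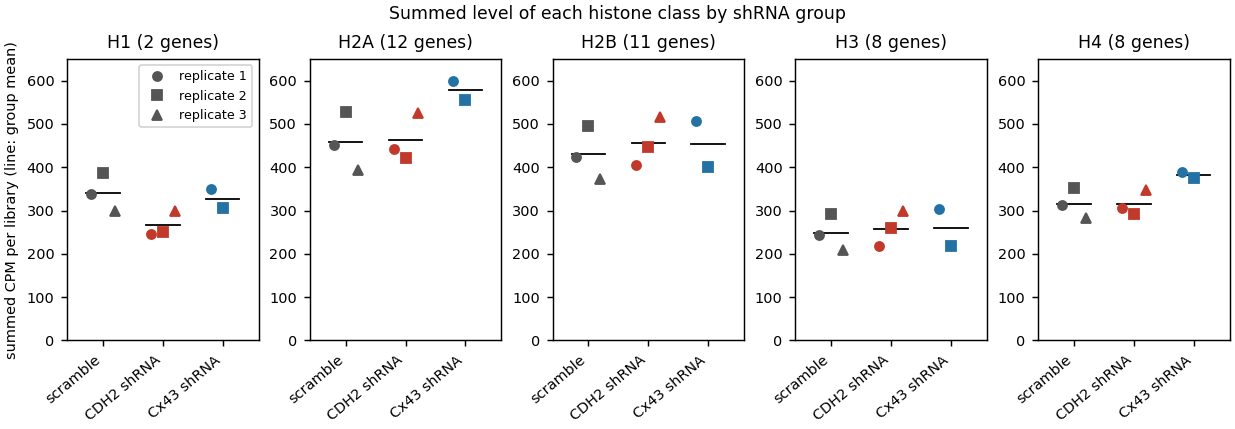
Each panel is a histone class and each point the summed CPM of its genes in a library, with the group mean as a line. H2A and H4 were highest in the Cx43 shRNA libraries (556 and 599 CPM, 375 and 388 CPM), and H1 was lowest in CDH2 shRNA (246 to 300 CPM).

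Some cluster histone genes also give polyadenylated transcripts, mostly in cells that have stopped cycling. Of 9 genes on a list of these, 8 were among the 41, and their median log2 fold changes were 0.06 in CDH2 and 0.14 in Cx43 knockdown, against 0.10 and 0.22 for the other 33. HIST2H2BE was the gene of the 8 that passed the adjusted p in CDH2 knockdown. The canonical transcripts of 17 genes held no 75-base stretch found in a transcript of another gene, and the medians of these genes were 0.11 and 0.26. They include HIST1H3J, other transcripts of which share stretches with HIST1H2AM. For 13 genes over 50% of the stretches were shared, and their medians were 0.03 and 0.14.

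Many, but not all, histone variants outside the clusters are made throughout the cell cycle and mostly from polyadenylated mRNAs. Of 12 genes on the list, 11 were among the rows. In CDH2 knockdown 2 fell and 0 rose by the adjusted p, which 14.3% of all genes passed in either direction. H2AFJ, an H2A variant gene, was at 4.95, 4.99 and 4.89 in scramble, 4.30, 4.18 and 4.32 in CDH2 knockdown, and at 4.59 and 4.66 in Cx43 knockdown. In CDH2 knockdown it fell by 0.67 (SE 0.09, adjusted p = 0.0199 by limma), and the difference in Cx43 knockdown was -0.32 ± 0.10 (0.159). H3F3A, which encodes the replacement histone H3.3, was at 6.60, 6.68 and 6.51 in scramble, 6.18, 6.05 and 6.24 in CDH2 knockdown, and at 6.27 and 6.32 in Cx43 knockdown. It fell by 0.44 in CDH2 knockdown (SE 0.09, adjusted p = 0.0386), and all 5 knockdown libraries lay below scramble. H3F3B, which encodes the same protein, differed by -0.01 ± 0.08 and 0.19 ± 0.10. H2AFX, the H2A variant that is phosphorylated at DNA breaks, differed by 0.01 ± 0.18 and 0.25 ± 0.22, and H2AFZ, the H2A.Z gene, by -0.14 ± 0.16 and 0.01 ± 0.19. The medians of the 11 genes were 0.003 and 0.16.

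The genes that switch the clusters on had fold changes mostly above 0 in CDH2 knockdown. Of 11 genes of histone transcription, 9 were above 0 in CDH2 and 7 in Cx43 knockdown, against 51.0% and 57.6% of all genes. The medians were 0.18 and 0.11. HINFP and E2F1 were below 0 in both knockdowns, at -0.04 and -0.22 in CDH2 and at -0.13 and -0.08 in Cx43 knockdown. CCNE1, at -0.13, and POU2F1, at -0.42 ± 0.09 (adjusted p = 0.0927 by limma), were below 0 in Cx43 knockdown. None of these genes passed the test, and they were named after their values were seen. CCNE2, a cyclin E, rose in both knockdowns and was past threshold in both. It was at 3.96, 4.01 and 3.91 in scramble, 4.81, 4.85 and 4.90 in CDH2 knockdown, and at 4.83 and 4.73 in Cx43 knockdown, a rise of 0.90 ± 0.08 (adjusted p = 0.016 by limma) and of 0.82 ± 0.10 (0.0354). CRAMP1 rose in CDH2 knockdown by 0.48 ± 0.11 (0.0446), and its difference in Cx43 knockdown was 0.12 ± 0.13. NPAT was at 4.87, 4.76 and 4.97 in scramble, 5.30, 5.27 and 5.13 in CDH2 knockdown, and at 5.2 and 5.34 in Cx43 knockdown. All 5 knockdown libraries lay above scramble, with differences of 0.36 ± 0.10 (adjusted p = 0.0656) and 0.40 ± 0.12 (0.147) that did not pass the test. In the 30 genes that process and degrade histone mRNA, 0 passed an adjusted p of 0.05 in either knockdown, with medians of 0.08 and 0.05, and 10 and 5 had an unadjusted p under 0.05, against 37.5% and 21.6% of all genes. SLBP, which binds the stem-loops shown above, differed by 0.25 ± 0.11 (adjusted p = 0.162) and 0.33 ± 0.13 (0.224).

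Histone chaperones and supply factors carry new histones to DNA. Of 28 genes, 3 rose and 0 fell in CDH2 knockdown by the adjusted p, where 943 of all 12939 genes rose and 903 fell. In Cx43 knockdown 0 passed, and 9 had an unadjusted p under 0.05, against 21.6% of all genes. The medians were 0.18 and 0.21. TONSL and MMS22L, which act together on newly replicated DNA, rose in CDH2 knockdown by 0.62 ± 0.12 (adjusted p = 0.0328 by limma) and 0.51 ± 0.08 (0.0224), and IPO4, an importin of histones, by 0.57 ± 0.14 (0.0476). TONSL was at 6.11, 6.25 and 5.99 in scramble, 6.65, 6.68 and 6.86 in CDH2 knockdown, and at 6.87 and 6.70 in Cx43 knockdown, a difference of 0.66 ± 0.14 in Cx43 knockdown (0.0849). CHAF1A, CHAF1B and ASF1B, which deposit new H3 and H4, differed by 0.17 ± 0.14, 0.30 ± 0.13 and 0.21 ± 0.12 in CDH2 knockdown and did not pass. In Cx43 knockdown they differed by 0.29 ± 0.16, 0.39 ± 0.16 and 0.31 ± 0.14.

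Of the 40 genes of DNA replication, 36 and 37 had fold changes above 0, with medians of 0.18 and 0.24, and 9 rose and 0 fell in CDH2 knockdown by the adjusted p, which 14.3% of all genes passed. In Cx43 knockdown 0 passed, and 17 had an unadjusted p under 0.05, against 21.6% of all genes. As with the histone genes, the medians differed between replicate numbers. In CDH2 knockdown they were 0.16, 0.05 and 0.51 within replicates 1, 2 and 3, with 30, 21 and 39 genes above 0, and in Cx43 knockdown they were 0.29 and 0.04, with 39 and 23 genes above 0. POLA1, which encodes the catalytic subunit of DNA polymerase alpha, was at 5.65, 5.75 and 5.58 in scramble, 6.33, 6.47 and 6.52 in CDH2 knockdown, and at 6.25 and 6.01 in Cx43 knockdown, and it rose by 0.78 ± 0.11 in CDH2 knockdown (adjusted p = 0.0209 by limma). RRM2, a subunit of ribonucleotide reductase, and POLE, the catalytic subunit of polymerase epsilon, rose by 0.70 ± 0.14 (0.0339) and 0.61 ± 0.12 (0.0348). In each of the 3 genes, which were named for the size of their rise, all CDH2 knockdown libraries lay above all scramble libraries. So they did in 20 of the 40 genes of the list and in 27.1% of all genes.

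Other RNAs without a poly(A) tail, such as small nuclear RNAs and the RNAs of RNase P and 7SK, had fold changes mostly below 0. Of 48 genes, 47 and 40 had fold changes below 0, with medians of -0.27 in CDH2 and -0.22 in Cx43 knockdown. By the adjusted p, 6 of the 48 fell and 0 rose in CDH2 knockdown, where 903 of all 12939 genes fell and 943 rose. RN7SK, RPPH1 and SCARNA16, 3 of the 6, were past threshold, as were 155 of all genes that fell. In Cx43 knockdown 0 passed, and 10 had an unadjusted p under 0.05, against 21.6% of all genes. The medians were -0.18, -0.14 and -0.40 within replicates 1, 2 and 3 in CDH2 knockdown, and -0.32 and -0.02 within replicates 1 and 2 in Cx43 knockdown. RN7SK, which holds back transcription elongation, was at 10.84, 11.17 and 10.52 in scramble, 9.51, 9.49 and 9.98 in CDH2 knockdown, and at 9.86 and 9.55 in Cx43 knockdown. It fell by 1.18 in CDH2 knockdown (SE 0.23, adjusted p = 0.0335 by limma), and the difference in Cx43 knockdown was -1.14 ± 0.27 (0.103). RPPH1, the RNA of RNase P, fell by 0.82 in CDH2 knockdown (SE 0.13, 0.0237) and SCARNA16 by 0.77 (SE 0.12, 0.0224). Together these 48 genes took 2.30% to 2.58% of the summed CPM in scramble, 1.31% to 1.72% in CDH2 knockdown, and a share of 1.54% and 1.93% in Cx43 knockdown. The ranges of scramble and of the knockdowns did not overlap, whereas those of the histone sums did. These shares are set largely by the most abundant genes, RN7SL2 and RN7SL1, at scramble means of 12.89 and 11.96. Neither gene passed the test in CDH2 knockdown, with differences of -0.59 and -0.65 (adjusted p = 0.0602 and 0.0572 by limma). Nor did they in Cx43 knockdown, at -0.39 and -0.37 (0.296 and 0.344). The shares therefore do not describe the 48 genes evenly.

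**Figure D5:**
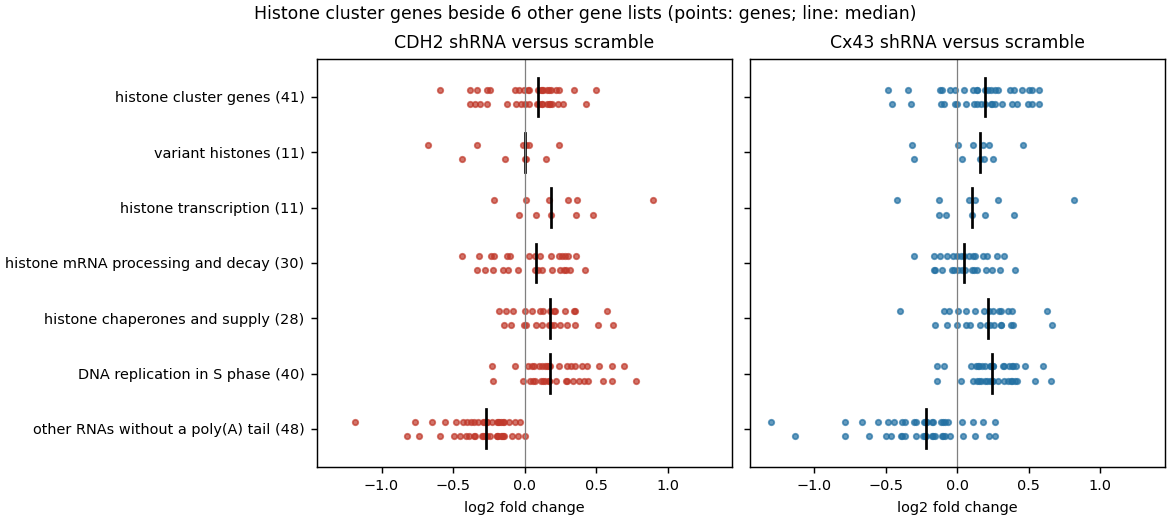
Each point is the log2 fold change of a gene against scramble and each line the median of its list, with the number of genes in parentheses. The histone cluster genes have medians of 0.09 and 0.19, the replication genes of 0.18 and 0.24, and the other RNAs without a poly(A) tail of -0.27 and -0.22.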

How the data were processed

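RNA-Seq values of 8 libraries of sorted CSCs were used. Per the methods and the submitters' processing notes, the authors sequenced single reads of 75 bases, aligned them to hg38 with STAR in Partek Flow (version 2.6.1 in the notes, whereas the methods give another version), took out a low-quality sample, normalized, corrected for the sequencing runs and dropped genes whose values were low. Values were deposited on the log2 scale, as log2(CPM + 1). The annotation and the counting by strand are not given in the sources used here. On this scale, fold changes of low genes come out too small. Count models were not used, since these values are not counts. The 1 row without a gene name was left out.

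The values of all 12939 genes were fitted with limma 3.58.1 in R 4.3.3 (lmFit and eBayes) in 1 model of the 8 libraries, with terms for group and replicate number (the block), and tested two-sided with Benjamini-Hochberg adjustment. The block was kept because the methods removed the run effect. The pairing comes from the replicate numbers of the labels: deviations of same-numbered libraries from their group means cancelled to within 0.0001 throughout, which leaves no independent check of it. The fit counts 3 residual degrees of freedom, to which 2.84 were added from the other genes, although the deviations vary in 2 directions, so p-values may be too small. Past threshold means an adjusted p below 0.05 together with a log2 fold change of at least 0.73 (CDH2) or 0.58 (Cx43), the fold changes set in the methods, and 0.58 was also used between the knockdowns, for which the methods set none. The fit was tested on simulated data.

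Gene positions, spans and promoters are from RefSeq, to which 41 of the 41 genes were matched. Transcript lengths, strands and stop codons are from GENCODE v44 on hg38. Shared sequence is the share of a canonical transcript's 75-base stretches found in transcripts of other genes. Members and lists were chosen with earlier results of these data known. Genes named with values in every library are, in each class, the one with the highest level and those with the largest rise and fall in each knockdown, NPAT, SLBP and other genes of the lists fixed by name, and up to 3 in each direction with an adjusted p under 0.05 in each list. For some of the latter only the fold change is printed. YARS stood on the list of histone transcription in error and was left out. Alternatives were a fit without the block, a fit of the compared groups alone, each library left out, quantile normalization, median centring, a filter that keeps the top 75% of genes by mean, 0.1 as pseudocount, a variance trend, other thresholds and summed CPM. Python 3.11.15 and matplotlib 3.10.9 were used.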

Additional observations from a re-analysis of the deposited data

How the results depend on the processing

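Without the replicate number as a block, with the same fold changes, 3 histone genes in CDH2 knockdown passed the adjusted p alone (HIST1H1C, HIST1H3J and HIST2H2BE), 7 in Cx43 knockdown and 3 between the knockdowns, against 1, 0 and 0 with the block. Over all genes the counts were 5607, 3140 and 2784, against 1846, 156 and 0. With only the groups compared in the fit, the counts were 0, 11 and 2, and 0, 1 and 1 genes were past threshold. Without the fold change, 1 gene was past threshold in CDH2 knockdown. By summed CPM the H4 class differed by 0.28 in Cx43 knockdown, against a median of 0.01. Quantile normalization, centring, the filter, the pseudocount, and the mean-variance trend left the counts of histone genes as they were, and with the fold change and an adjusted p under 0.1 still 0 genes were past threshold. Adding the identical copies together was chosen after seeing the data and left the counts of histone genes as they were too.

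With each library left out in turn, 0 to 2 genes were past threshold in CDH2 knockdown, 0 to 4 in Cx43 knockdown and 0 to 2 between the knockdowns, and 0 to 10, 0 to 5 and 0 to 8 had an adjusted p under 0.05. The most in CDH2 knockdown, 10, came without scramble or CDH2 shRNA replicate 3, and the 4 past threshold in Cx43 knockdown without scramble replicate 2. Over all genes 0 to 5309 were called in CDH2 knockdown. The medians ran from -0.10 to 0.23 over all 41 genes in CDH2 and from -0.04 to 0.37 in Cx43 knockdown. By class they ran from -0.55 to -0.20 (H1), -0.13 to 0.23 (H2A), -0.06 to 0.25 (H2B), -0.04 to 0.30 (H3) and -0.17 to 0.04 (H4) in CDH2 knockdown. In Cx43 knockdown they ran from -0.27 to 0.10 (H1), 0.13 to 0.49 (H2A), -0.05 to 0.34 (H2B), -0.057 to 0.48 (H3) and -0.21 to 0.27 (H4).

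Single genes changed sign in 13 of 320 values with a library left out and in 0 of 307 under the other settings. In CDH2 knockdown HIST1H2AJ ran from -0.0032 to 0.44, HIST1H2BD from -0.25 to 0.092 and HIST1H2BO from -0.62 to 0.0375. In Cx43 knockdown HIST1H1E ran from -0.67 to 0.027, HIST1H2BD from -0.27 to 0.24, HIST2H2AA3 from -0.34 to 0.42, HIST2H2BF from -0.78 to 0.10, HIST2H3A from -0.24 to 0.56 and HIST2H3C from -1.07 to 0.10. The causes were not tested. A fit without rows named as pseudogenes could not be made, since 0 of the 41 are. The lack of counts and the 2 to 3 libraries in each group limit what differences could be seen, and the median standard error of a histone gene was 0.17 in CDH2 and 0.20 in Cx43 knockdown, against 0.11 and 0.12 for all genes.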
